A study of Mus musculus with 21 samples.

Results

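The genes described here are targets of Wnt and beta-catenin signalling, chosen by name as Nkd1, Axin2, Lgr5, Tbx3, Notum, Rnf43, Znrf3, Sp5 and Glul, and their array signals were followed over every arm and every tumour. Of these 9 genes, 7 had a named probe set, 1 each, among 19505 named genes on 22206 tested probe sets. Rnf43 and Glul are named only. The 9 genes and the other gene lists below were chosen with earlier results of these data known. A direction or covariation that the genes share is therefore not independent evidence. Each of the 21 tumours came from a different mouse. All mice were female C57BL/6J animals of 5 to 6 weeks that carried Hepa1-6 cells, a mouse hepatoma line, under the skin, and were randomised at a tumour volume of 200 mm3. The placebo arm (6 mice) received drug vehicle and a polyclonal IgG, and the lenvatinib arm (5 mice) received that kinase inhibitor of VEGF and FGF receptors by gavage at 10 mg/kg each day. The anti-PD1 arm (5 mice) received the J43 antibody against the T cell receptor PD-1 into the peritoneum at 10 mg/kg, 1 dose every 3 days for 5 doses, and the combination arm (5 mice) received both agents at those doses. Tumours were collected 13 days after randomisation, at 2 h from the final dose of lenvatinib and 1 day from that of the antibody. RNA of a 30 mg piece per tumour was run on a Clariom S mouse array. A subcutaneous graft of 1 cell line lacks the liver around it, and a piece of that size can hold skin, fat and muscle of the host.

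Wnt ligands bind Frizzled and LRP receptors and stop the destruction complex from degrading beta-catenin, which then enters the nucleus and acts with TCF and LEF factors on target genes. Several targets feed back on the pathway: Axin2 rebuilds the destruction complex, Nkd1 binds Dishevelled, Znrf3 and Rnf43 remove Frizzled from the membrane, and Notum inactivates the ligand outside the cell. In the normal liver the pathway is active around the central vein, where Glul, Axin2 and Lgr5 are expressed, and activating mutations of beta-catenin are common in hepatocellular tumours.

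The promoters of Nkd1 and Axin2, the members with the widest spread of signal here together with Znrf3, and of Sp5, the member with TCF motif letters, are shown as the 250 bases before an annotated start on the plus strand. The sequences and coordinates are RefSeq's, build GRCm38.p6, and 5 of the 9 genes had an entry (Nkd1, Axin2, Rnf43, Sp5 and Glul). The windows are chr8:88527383-88527632 for Nkd1, chr11:108920099-108920348 for Axin2 and chr2:70474673-70474922 for Sp5, and capitals mark motif matches. The windows of Nkd1 and Axin2 lie inside the annotated genes, which begin at 88521342 and 108917828. The bases before those gene starts were not searched. The Sp5 window lies directly before its gene, which begins at 70474923.
Nkd1: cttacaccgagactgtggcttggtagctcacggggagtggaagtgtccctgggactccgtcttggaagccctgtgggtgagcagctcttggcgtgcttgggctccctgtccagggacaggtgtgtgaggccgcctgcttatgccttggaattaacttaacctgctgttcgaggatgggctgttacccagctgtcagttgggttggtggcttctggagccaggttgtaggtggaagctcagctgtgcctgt
Axin2: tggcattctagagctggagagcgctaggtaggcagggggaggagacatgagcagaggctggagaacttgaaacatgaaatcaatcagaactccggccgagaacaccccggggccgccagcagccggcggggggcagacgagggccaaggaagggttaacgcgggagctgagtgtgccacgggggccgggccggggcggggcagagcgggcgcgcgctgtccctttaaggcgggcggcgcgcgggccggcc
Sp5: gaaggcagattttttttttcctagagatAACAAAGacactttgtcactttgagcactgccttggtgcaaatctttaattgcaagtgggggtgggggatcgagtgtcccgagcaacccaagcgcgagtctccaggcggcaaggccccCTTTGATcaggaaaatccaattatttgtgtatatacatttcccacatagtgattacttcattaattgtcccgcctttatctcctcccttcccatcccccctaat
The letters searched were CTTTG followed by AA, AT, TA or TT, on both strands, the core bound by TCF and LEF factors. Sp5 held 2 matches, AACAAAG on the minus strand at -222 to -216 and CTTTGAT at -104 to -98 from the start. The windows of Nkd1, Axin2, Rnf43 and Glul held none of these letters. Over all 32851 promoter windows of that length, 14.8% held at least 1 match and 1.43% at least 2. A match describes the letters only, and other stretches of these genes were not searched.

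The median signal of an array was 5.32 to 5.49. Signals are log2 values and differences between arms are log2 differences ± standard error from limma. Negative control probe sets had a median signal of 4.10. All 19 measured hepatocyte lineage genes stood above that median on average, as did all 14 fibroblast, 9 adipocyte and 12 skeletal muscle genes. On 6 arrays (placebo 4 and 6, lenvatinib 1 and 2, anti-PD1 1, combination 1) the hybridization controls averaged at least 11.2, against at most 10.7 on the other 15. No probe set passed an adjusted p of 0.05 in any of the 6 pairs of arms or in the interaction, which asks whether the agents' effects add on the log2 scale. In these bulk samples fewer cells of a type and less RNA per cell cannot be told apart.

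With lenvatinib alone, all 7 Wnt targets had a higher mean signal than with placebo, by 0.34 to 2.17 log2, and 4 of them (Nkd1, Znrf3, Axin2 and Lgr5) had an unadjusted limma p under 0.05. None passed after adjustment over all probe sets, where percent called was 0. At the unadjusted threshold 2.92% of probe sets lay higher and 49.1% had a difference above 0. The median difference was 1.00 over the 7 genes and -0.01 over all probe sets. Tumours of the 2 arms overlapped for each of the 7 genes, and 0.288% of all probe sets had every lenvatinib tumour above every placebo tumour. Lists of other genes also had nearly all their members on 1 side of 0 in this pair of arms. Of 19 mitosis genes 19 were above 0 (median 1.05, 7 at an unadjusted p under 0.05), and of 19 hepatocyte lineage genes 17 (median 0.68, 5 at that p). Of 14 fibroblast and matrix genes 14 were below 0 (median -0.81), as were 13 of 13 macrophage genes (median -0.70) and 9 of 9 adipocyte genes (median -1.73). Their part in the members' difference was not tested beyond the fits with scores as covariates.

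Nkd1, the Dishevelled-binding inhibitor, ranged in placebo from 5.61 over a median of 7.55 to 9.60. The lenvatinib tumours, mice 1 to 5, read 9.85, 9.40, 10.05, 9.86 and 9.26, and 3 of the 5 lay above every placebo tumour. The anti-PD1 tumours read 7.29, 5.73, 9.74, 8.88 and 10.04, and the combination tumours 9.62, 7.21, 9.07, 7.89 and 6.41. All lenvatinib tumours were thus high, while each other arm held both high and low tumours. The mean was 7.52 ± 1.84 (SD, n = 6) in placebo, 9.69 ± 0.34 (SD, n = 5) with lenvatinib, 8.34 ± 1.81 (SD, n = 5) with anti-PD1 and 8.04 ± 1.31 (SD, n = 5) with the combination. Lenvatinib minus placebo stood at 2.17 ± 0.82, a 4.49-fold higher geometric mean (limma adjusted p = 0.693). In an exact two-sided permutation test, unadjusted, p was 0.0390 for Nkd1 and 0.0238 for Znrf3, while Axin2 (0.0541), Lgr5 (0.0693), Notum (0.0844), Tbx3 (0.154) and Sp5 (0.262) did not reach 0.05. Here and in the later pairs of arms, the share of all probe sets under 0.05 in this test was not computed. Without the 6 bright-control arrays the difference was 1.45 for Nkd1, 0.89 for Axin2, 1.26 for Znrf3 and 1.12 for Lgr5, none with an unadjusted limma p under 0.05, and 0.95 for Tbx3, which then had one.

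Axin2, the destruction complex scaffold, ranged in placebo from 5.28 over 7.01 to 8.45. It read 8.62, 8.84, 8.75, 8.19 and 8.15 with lenvatinib, all above the placebo median. It read 7.33, 5.45, 8.72, 7.50 and 8.82 with anti-PD1, and 8.89, 6.18, 7.64, 6.94 and 5.92 with the combination. The highest of the 21 values was thus in a combination tumour, mouse 1, and the lowest in placebo. Lenvatinib minus placebo stood at 1.54 ± 0.65 (limma adjusted p = 0.693), and the SD within an arm was 1.39 in placebo, 0.32 with lenvatinib, 1.37 with anti-PD1 and 1.20 with the combination.

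Among the genes that act at the membrane or outside the cell, Znrf3, the ubiquitin ligase that removes Frizzled, ranged in placebo from 6.68 over 8.21 to 9.60. It read 9.70, 9.34, 10.29, 10.14 and 9.45 with lenvatinib, 6.95, 7.01, 9.99, 8.94 and 10.05 with anti-PD1, and 9.96, 7.19, 9.02, 8.45 and 6.45 with the combination. Lenvatinib tumours 1, 3 and 4 lay above every placebo tumour, at a difference in means of 1.62 ± 0.67 (limma adjusted p = 0.693). Lgr5, a receptor for R-spondins and a stem cell marker, ranged in placebo from 5.61 over 7.08 to 7.64. It read 7.25, 7.50, 8.69, 8.33 and 7.27 with lenvatinib, 7.21, 6.10, 8.67, 7.15 and 8.07 with anti-PD1, and 8.08, 6.31, 7.37, 6.76 and 6.69 with the combination. The lenvatinib difference from placebo was 1.00 ± 0.45 (limma adjusted p = 0.693), and it came with 2 of 5 tumours above the placebo range.

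Notum, the secreted enzyme that strips the lipid from Wnt ligands, ranged in placebo from 5.28 over 6.42 to 7.46. It read 6.84, 6.81, 8.18, 8.03 and 6.97 with lenvatinib, 6.42, 5.91, 8.43, 6.92 and 7.82 with anti-PD1, and 7.40, 6.20, 7.27, 6.43 and 5.63 with the combination. Lenvatinib tumours 3 and 4 and anti-PD1 tumours 3 and 5 lay above the placebo range, and no combination tumour did. Lenvatinib minus placebo stood at 0.94 ± 0.47 (limma adjusted p = 0.693).

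Of the transcription factors, Tbx3 had its smallest spread in the combination arm. It ranged in placebo from 5.09 over 5.82 to 6.59, and read 5.73, 5.80, 7.58, 7.03 and 6.53 with lenvatinib and 5.83, 6.08, 7.15, 6.10 and 7.41 with anti-PD1. The combination tumours read 6.07, 5.18, 5.82, 5.65 and 5.43, with an SD of 0.35 against 0.66 to 0.80 in the other arms. Placebo tumours 1, 4 and 6, at 5.09, 5.28 and 5.39, lay below 4 of these 5. Every combination tumour lay below the mean of each single-agent arm, though the ranges overlapped. Sp5, a zinc finger factor that represses Wnt targets, lay near background, with 17 of 21 tumours above the negative control median. Its placebo range was 3.97 over 4.68 to 5.24, and it read 4.68, 5.28, 5.46, 4.83 and 4.57 with lenvatinib, 3.92 to 5.60 with anti-PD1 and 4.06 to 5.12 with the combination. Lenvatinib minus placebo was 0.69 ± 0.37 for Tbx3 (limma adjusted p = 0.696) and 0.34 ± 0.31 for Sp5 (limma adjusted p = 0.821).

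**Figure D1:**
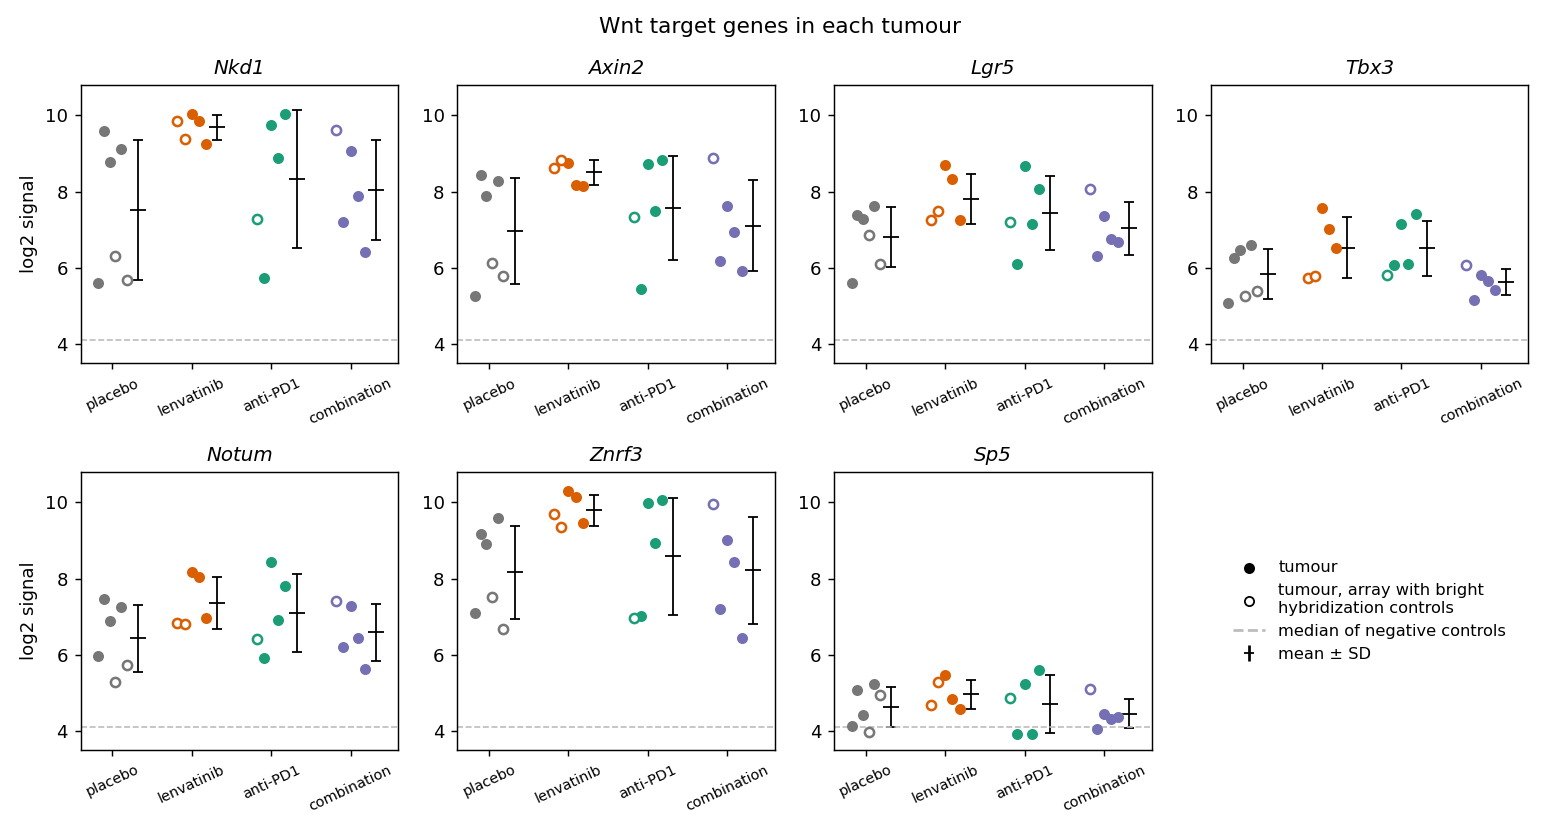
Log2 signal of the 7 Wnt targets, 1 point per tumour in 4 arms, with the mean and SD of each arm as a cross and bar and the negative control median of 4.10 as a dashed line; open points are the 6 arrays with bright hybridization controls. Nkd1 lies between 9.26 and 10.05 in the 5 lenvatinib tumours and spreads from 5.61 to 10.04 over the other arms.

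With anti-PD1 alone the same 7 genes again had higher means than placebo, by 0.08 (Sp5) to 0.82 (Nkd1), with a median of 0.63. No gene reached an unadjusted p under 0.05, 0% of probe sets passed after adjustment, and 49.6% of all probe sets had a difference above 0. The 95% interval of the Nkd1 difference ran from -0.88 to 2.52, and that of Tbx3 from -0.10 to 1.44. Both comparisons use the same placebo tumours, so their directions are not independent of each other.

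The combination means stood near those of placebo in the main fit, with wide intervals. Its means were above placebo for 5 of the 7 genes and below for Tbx3 and Sp5, from -0.21 to 0.52 log2 with a median of 0.14, and 49.3% of all probe sets had a difference above 0. After adjustment 0% of probe sets passed, and limma gave an adjusted p of 1.00 for every member. The 95% interval ran from -1.18 to 2.22 for Nkd1 and from -1.21 to 1.49 for Axin2. The direction depended on single tumours and on the processing. With combination tumour 1 left out, 1 of 7 genes lay above placebo and the median was -0.30, and without placebo tumour 1 it was -0.16. All 7 lay below placebo with array weights (median -0.32), without the bright-control arrays (-0.58) and with adipocyte and muscle scores as covariates (-0.44). With cyclic loess, 5 of 7 stayed above placebo (median 0.13).

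Set against lenvatinib alone, all 7 genes had lower means in the combination, by 0.50 for Sp5 to 1.65 for Nkd1, with a median difference of -0.90. Znrf3, at -1.57 ± 0.70, and Tbx3, at -0.90 ± 0.39, had unadjusted limma p values of 0.0370 and 0.0298, and Nkd1 (-1.65 ± 0.85) and Axin2 (-1.40 ± 0.68) had 0.0673 and 0.0520. All adjusted p values were at least 0.780, where percent called was 0. At the unadjusted threshold 2.53% of probe sets lay lower, and 48.8% of all probe sets had a difference above 0. In an exact two-sided permutation test of each gene, which cannot go below 0.00794 in this pair of arms, p was 0.0317 for Nkd1, 0.0397 for Znrf3 and 0.0556 for Axin2 and Tbx3, unadjusted. No combination tumour exceeded the lenvatinib mean of Nkd1 or Tbx3, and only combination tumour 1 exceeded that of Axin2, Znrf3, Lgr5, Notum or Sp5.

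Set against anti-PD1 alone, all 7 means were again lower in the combination, by 0.25 for Sp5 to 0.88 for Tbx3, and 48.1% of all probe sets had a difference above 0. Tbx3, at -0.88 ± 0.39, had an unadjusted limma p of 0.0330 and an adjusted p of 0.564, with 0% of probe sets called after adjustment and 2.79% lower at the unadjusted threshold. Its exact permutation p was 0.0159, unadjusted. For Nkd1 the difference was -0.30 ± 0.85, and it stood above 0 without anti-PD1 tumour 3 or 5 or combination tumour 5. Lenvatinib and anti-PD1 tumours differed by 0.02 (Tbx3) to 1.35 (Nkd1), higher with lenvatinib for all 7 genes, where 51.5% of all probe sets had a difference above 0, 0% passed after adjustment and no member had an unadjusted p under 0.05.

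The interaction lay below 0 for all 7 genes, meaning that the combination sat lower than the sum of both single-agent differences. Its median was -1.57 over the 7 genes and -0.01 over all probe sets, of which 48.9% were above 0. In the same contrast 13 of 13 macrophage genes (median 2.19) and 10 of 10 T cell genes (median 2.03) lay above 0, and 12 and 10 of them had an unadjusted limma p under 0.05. Of 19 mitosis genes 19 lay below 0 (median -1.35), as did 18 of 19 hepatocyte lineage genes (median -1.28). Among the members, Tbx3 stood at -1.57 ± 0.54 (limma adjusted p = 0.306) and Nkd1 at -2.46 ± 1.18 (adjusted p = 0.553). Axin2 (-1.99 ± 0.94), Lgr5 (-1.39 ± 0.64) and Notum (-1.45 ± 0.69) also had an unadjusted p under 0.05, as did 3.31% of all probe sets in that direction, and 0% passed after adjustment. With arrays weighted by their fit, which gave the 6 bright-control arrays weights from 0.178 to 0.643, limma called Tbx3, Znrf3, Lgr5 and Notum in the interaction (adjusted p = 0.0139 to 0.0329) among 4.14% of probe sets lower. With the same weights it called Tbx3 and Znrf3 in the combination against lenvatinib (adjusted p = 0.0277 and 0.0441) among 1.63% lower. Combination tumours 1 to 5 had weights of 0.368, 1.82, 2.01, 1.25 and 1.37. Lenvatinib tumours 1 to 5 had 0.268, 0.361, 2.49, 3.63 and 1.61. Combination tumour 1 was the highest of its arm for all 7 genes.

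**Figure D2:**
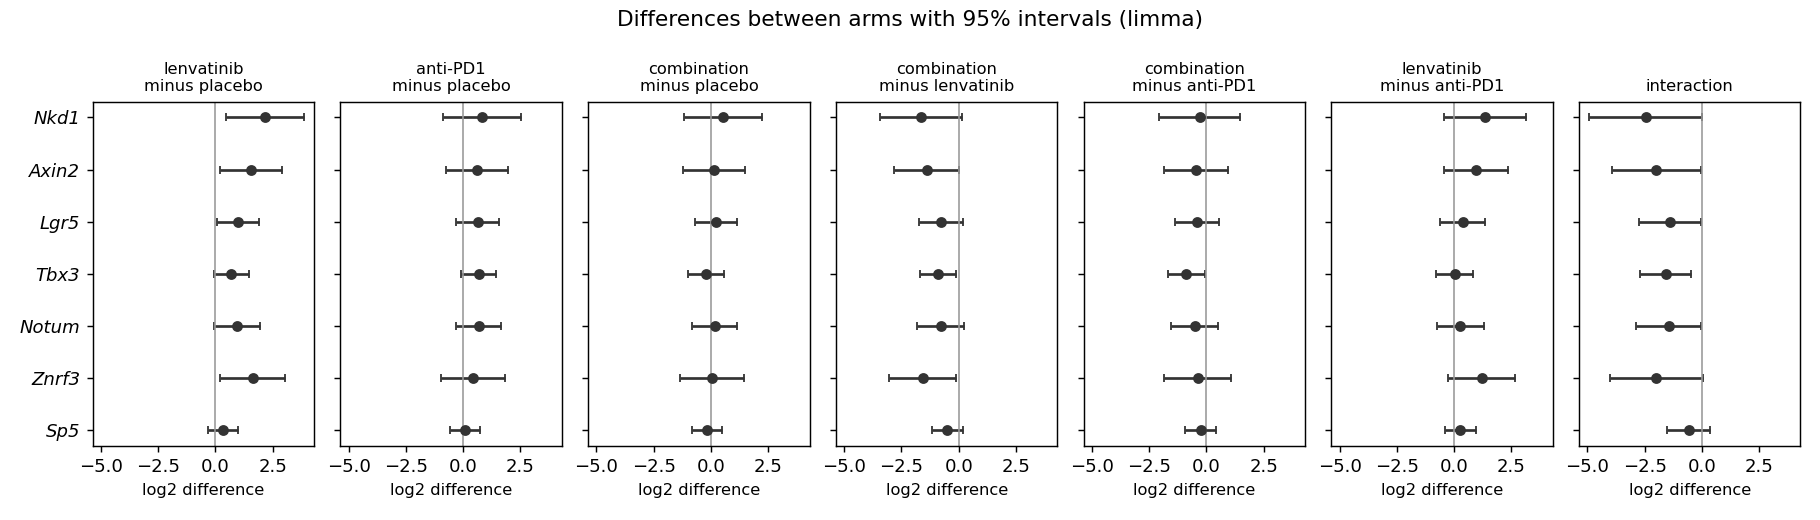
Log2 differences of the 7 Wnt targets with 95% limma intervals, 1 panel for each of the 6 pairs of arms and the interaction. Lenvatinib minus placebo lies above 0 for all 7 genes, combination minus lenvatinib lies below 0 for all 7, and combination minus placebo spans 0 from -0.21 to 0.52.

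In the order of arm means, lenvatinib was highest and anti-PD1 next for every member. The combination followed and placebo was lowest for Nkd1, Axin2, Lgr5, Notum and Znrf3, while Tbx3 and Sp5 had the combination lowest. No neighbouring arms in this order reached an unadjusted limma p under 0.05 for any member.

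Most of the spread lay between tumours of the same arm. The SD of Nkd1 was 1.48 within arms and 1.59 over the 21 tumours, the latter at the 99.3 percentile of all probe sets, and the percentile was 98.5 for Znrf3, 98.1 for Axin2, 92.7 for Notum, 91.4 for Lgr5, 87.1 for Tbx3 and 71.9 for Sp5. Placebo tumours 1 and 4 and combination tumours 2 and 5 held one of the lowest 7 of 21 values for all 7 genes, and placebo tumour 6 and anti-PD1 tumour 2 for 6 of 7. Lenvatinib tumour 3 and anti-PD1 tumours 3 and 5 held one of the highest 7 values for all 7 genes, and combination tumour 1 for 6 of 7. No lenvatinib tumour was in the low set, and no arm was made up of high tumours alone. A member score, the mean of the 7 genes after each was centred on its mean over the tumours, ran from -1.52 (placebo 1) to 1.37 (lenvatinib 3).

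The 7 genes varied together from tumour to tumour. All 21 pairs were positively correlated over the 21 tumours, with Pearson r from 0.616 (Znrf3 and Sp5) to 0.968 (Nkd1 and Axin2), a median of 0.850 and Spearman rho from 0.570 to 0.944. All 21 passed a permutation test with Benjamini-Hochberg adjustment over the pairs. The largest adjusted p of that test was 0.00381 for r and 0.00802 for rho, and 1e-05 is the smallest p these permutations can give. Many genes outside the list followed a member more closely than another member did. By r among 19504 other named genes, Sp5 ranked 1709th for Znrf3 and 1483rd for Nkd1. The share of all gene pairs that would pass was not computed. For Nkd1 and Axin2, r was 0.968 and rho 0.917 (permutation p = 1e-05, adjusted 1.75e-05 and 2.1e-05), and r was 0.958 without the 2 tumours farthest from the median of Nkd1. With arm means subtracted r ran from 0.562 to 0.962, and without the bright-control arrays from 0.748 to 0.984 over 15 tumours. Leaving out the 2 farthest tumours gave r from 0.484 (Tbx3 and Sp5) to 0.958, and by rho 20 of 21 pairs then passed, the exception being Tbx3 and Sp5 (rho 0.421, permutation test adjusted p = 0.074).

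Marker scores of tissues and of cell division also varied among these tumours. A hepatocyte lineage score over 19 genes, built like the member score, followed every member, with r from 0.716 (Tbx3) to 0.967 (Axin2), and a mitosis score over 19 genes did so with r from 0.722 (Sp5) to 0.961 (Nkd1). An adipocyte score over 9 genes ran the other way, with r from -0.766 (Axin2) to -0.594 (Tbx3), as did a fibroblast and matrix score over 14 genes, from -0.796 (Axin2) to -0.535 (Tbx3). All 7 members passed the permutation test for each of these 4 scores after adjustment over 56 pairs of a member and a score. By rho, with values from 0.643 to 0.945 for hepatocyte and mitosis genes and from -0.838 to -0.427 for adipocyte and fibroblast genes, all but Tbx3 with the fibroblast score passed. An endothelial score passed for 3 of 7 by r and 2 of 7 by rho, and a macrophage score for 0 of 7 by r and 1 of 7 by rho. Skeletal muscle and T cell scores passed for 0 of 7 by either measure, with unadjusted permutation p values for r of at least 0.190 and 0.0825. The share of all named genes that would pass for each score was not computed. These counts of members depended on the tumours with the most extreme scores. Without the 2 tumours farthest from a score's median, all members but Tbx3 and Notum passed by rho for the macrophage score (-0.70 to -0.54). The same members passed for the T cell score (-0.66 to -0.54), and none passed for the endothelial or muscle score.

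**Figure D3:**
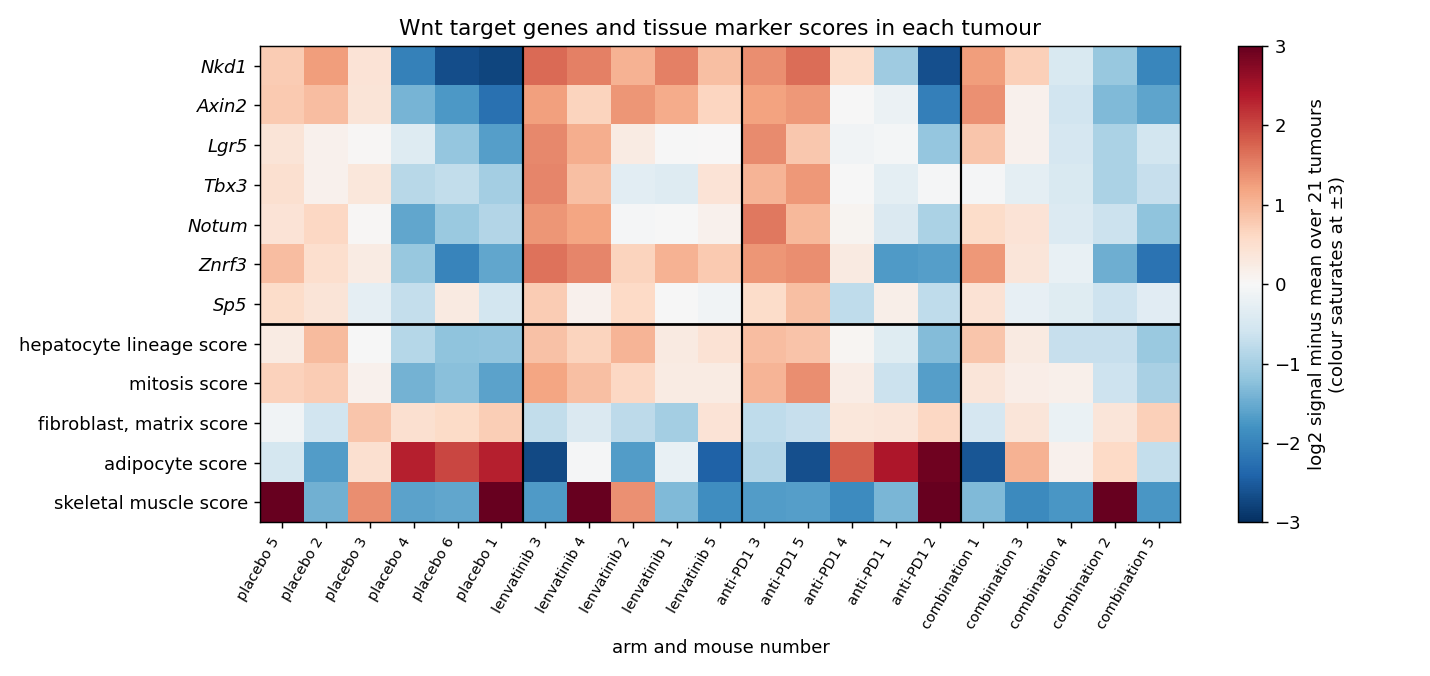
Heat map of the 7 Wnt targets and 5 tissue scores in 21 tumours, each row as log2 signal minus its mean over all tumours with the colour saturating at 3, tumours ordered within each arm by the member score. Placebo 1, 4 and 6, anti-PD1 2 and combination 2 and 5 are blue for most targets and for the hepatocyte lineage and mitosis scores.

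In placebo tumours 1, 4 and 6 the hepatocyte lineage score was -1.19, -0.85 and -1.20, against 0.95, -0.01 and 0.25 in placebo tumours 2, 3 and 5. Their adipocyte scores were 2.33, 2.34 and 2.00, against -1.66, 0.49 and -0.53. By arm the hepatocyte lineage score ranged from -1.20 to 0.95 in placebo, 0.27 to 1.03 with lenvatinib, -1.31 to 0.92 with anti-PD1 and -1.12 to 0.84 with the combination, and the adipocyte score from -1.66 to 2.34, -2.70 to -0.04, -2.64 to 2.92 and -2.57 to 1.04. With the hepatocyte lineage score as a covariate in the limma fit, an alternative added after the data were seen, the members' median difference was 0.11 for lenvatinib minus placebo, -0.05 for combination minus lenvatinib and -0.16 for the interaction. Nkd1 then stood at 0.36 for lenvatinib minus placebo and 0.04 for combination minus lenvatinib. Tbx3 kept -0.71 for combination minus anti-PD1 (limma adjusted p = 0.372). With the adipocyte and muscle scores as covariates, the lenvatinib median was 0.30 and the interaction median -1.26.

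**Figure D4:**
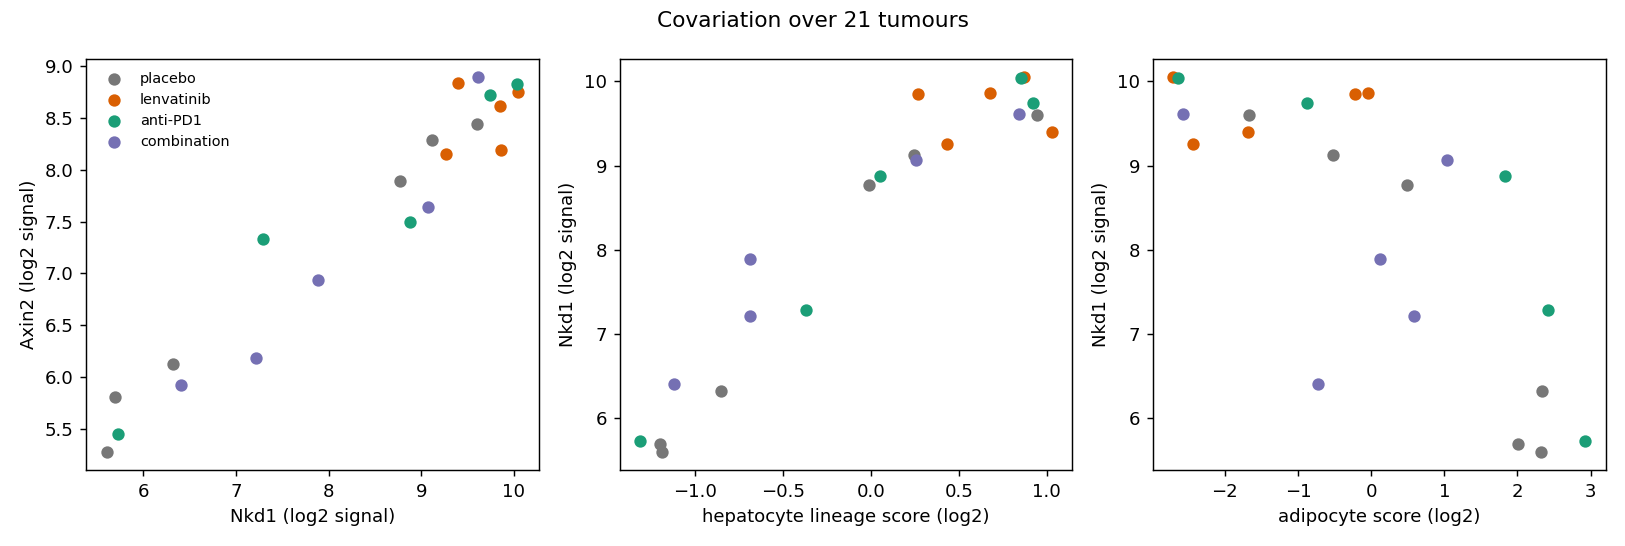
Scatter plots over 21 tumours, coloured by arm: Axin2 against Nkd1 (log2 signal), Nkd1 against the hepatocyte lineage score and Nkd1 against the adipocyte score. Nkd1 follows Axin2 (r = 0.968) and the hepatocyte lineage score (r = 0.956), and runs against the adipocyte score (r = -0.754).

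Several genes outside the list had a pattern closest to each member, by Pearson r over 21 tumours among 19504 other named genes. For Nkd1 they were Tspan8 (0.983), Cpn1 (0.981) and Pate14 (0.980), and for Axin2 Lect2 (0.979), Diaph3 (0.972) and Stra6 (0.972). Tbx3 was closest to Sox9 (0.947), Glis2 (0.944) and Shank2 (0.924), and Lgr5 to Gm15127 (0.936), D630039A03Rik (0.928) and Hunk (0.920). Notum was closest to Fam222a (0.956), Itga3 (0.955) and Kansl2 (0.953), Znrf3 to Dcbld2 (0.962), Itga3 (0.956) and Hunk (0.955), and Sp5 to Arsg (0.905), Kif18b (0.876) and Cit (0.870). Among the members' own ranks, Nkd1 was 4th for Znrf3 and 7th for Axin2, Axin2 was 11th for Nkd1, and the best member ranked 31st for Lgr5, 69th for Tbx3, 117th for Notum and 181st for Sp5. These correlations are over the same tumours and arrays, whose tissue marker scores also varied.

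Other genes of the pathway were followed from fixed lists. The naming rule took from each list the 2 genes with the smallest p in lenvatinib against placebo. It added the 2 with the smallest p over the other pairs of arms. Genes named by this rule were thus picked by p in these same data, and their differences are selected extremes of their lists. No gene of any list passed an adjusted p of 0.05 in a comparison, so the counts that follow are at an unadjusted limma p under 0.05. At that threshold 2.92% of all probe sets were higher and 4.05% lower in lenvatinib against placebo, 1.38% and 2.68% in anti-PD1 against placebo, and 1.01% and 1.3% in the combination against placebo. With the combination set against lenvatinib they were 3.87% and 2.53%, and against anti-PD1 4.85% and 2.79%. They were 1.55% and 3.04% in lenvatinib against anti-PD1, and 5.7% and 3.31% in the interaction. Of 19 Wnt ligands, 0 were higher and 0 lower in lenvatinib against placebo, and their median difference was 0.04. The ligand Wnt5a stood at 0.31 ± 0.16 there and Wnt11 at -0.44 ± 0.22. In the combination against anti-PD1, 0 ligands were higher and 3 lower. These were Wnt5b at -0.64 ± 0.22, Wnt2 at -0.52 ± 0.19 and, named after its values were seen, Wnt10b at -0.52 ± 0.23. Wnt5b and Wnt2 averaged 3.43 and 3.52 over the tumours, below the negative control median of 4.10. Of 17 receptors and co-receptors, 3 were higher (Lrp5, Lgr4 and Fzd10) and 1 lower (Fzd2) in lenvatinib against placebo, and 0 higher and 4 lower (Lgr4, Fzd3, Fzd4 and Fzd6) in the combination against anti-PD1.

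The co-receptor Lrp5 ranged in placebo from 5.72 over 6.99 to 7.57. It read 7.79, 7.50, 8.73, 8.40 and 7.45 with lenvatinib, 7.06, 7.05, 8.17, 7.67 and 8.47 with anti-PD1, and 7.97, 6.55, 7.40, 6.60 and 5.92 with the combination. Lenvatinib minus placebo was 1.15 ± 0.38 (limma adjusted p = 0.693) and the interaction -1.95 ± 0.55 (adjusted p = 0.204). Lgr4, an R-spondin receptor like Lgr5, ranged in placebo from 5.91 over 6.53 to 6.90. It read 6.91, 7.22, 7.09, 7.32 and 6.82 with lenvatinib, 6.59, 7.69, 6.74, 7.61 and 6.90 with anti-PD1, and 6.61, 5.91, 6.65, 5.80 and 5.92 with the combination. No combination tumour reached the lowest lenvatinib value of Lgr4, at a difference of -0.89 ± 0.25 (limma adjusted p = 0.780), which 0.482% of all probe sets shared as groups without overlap in that direction, and the interaction was -1.50 ± 0.34 (adjusted p = 0.151). The receptor Fzd2 had the opposite sign, at -0.74 ± 0.26 for lenvatinib minus placebo. Fzd3 stood at -0.81 ± 0.24 for combination minus anti-PD1, with a mean of 3.83 over the tumours, below the negative control median of 4.10. Of the Frizzled genes outside the naming rule, which were chosen after their values were seen, Fzd10 stood at 1.50 ± 0.58 for lenvatinib minus placebo, and Fzd6 at -1.09 ± 0.36 and Fzd4 at -1.08 ± 0.47 for combination minus anti-PD1.

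Rspo3, the R-spondin that keeps Frizzled at the membrane, had the opposite pattern at signals near or below background. It ranged in placebo from 3.20 over 4.47 to 5.29, and read 4.06, 3.60, 2.76, 2.73 and 3.76 with lenvatinib and 4.11, 2.80, 2.89, 3.38 and 2.73 with anti-PD1. The combination tumours read 4.04, 5.11, 3.87, 4.31 and 4.81. No lenvatinib tumour and 1 anti-PD1 tumour exceeded the negative control median, against 4 of 6 placebo and 3 of 5 combination tumours. The combination exceeded anti-PD1 by 1.25 ± 0.38 (limma adjusted p = 0.237), and the interaction was 2.17 ± 0.53 (adjusted p = 0.164). Of the 4 R-spondins, 1 was lower in lenvatinib against placebo. Of 14 extracellular inhibitors 0 were higher and 2 lower there, Dkk3 at -0.91 ± 0.37 and Frzb at -0.39 ± 0.19, the latter with a mean signal of 3.45, below background. Of 11 cytoplasmic transducers 1 was higher, Tnks2 (0.71 ± 0.29), a tankyrase that marks Axin for degradation, and of 8 nuclear factors 1 was lower, the beta-catenin co-factor gene Pygo1 (-0.59 ± 0.28).

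Of 8 further Wnt-responsive genes, 2 were higher in lenvatinib against placebo (Sox9 and Tnfrsf19, median 0.76), 2 in anti-PD1 against placebo (Sox9 and Ascl2, median 0.54), and 0 higher and 2 lower (Sox9 and Tnfrsf19) in the combination against each single agent. Sox9, a progenitor transcription factor, ranged in placebo from 5.03 over 6.18 to 7.38. It read 6.59, 6.43, 8.41, 8.13 and 7.01 with lenvatinib, 5.93, 6.75, 8.33, 7.27 and 8.77 with anti-PD1, and 5.97, 5.71, 6.64, 5.85 and 5.77 with the combination. Placebo tumours 1, 4 and 6 lay below every combination tumour for Sox9, at 5.52, 5.03 and 5.59. Combination minus anti-PD1 was -1.42 ± 0.53 (limma adjusted p = 0.388) and combination minus placebo -0.25. Tnfrsf19, a receptor of the TNF family, read 7.02, 7.52, 7.58, 7.17 and 6.94 with lenvatinib and 6.64, 6.02, 6.20, 5.80 and 5.59 with the combination. As for Lgr4, the ranges of these arms did not overlap, at a difference of -1.20 ± 0.40 (limma adjusted p = 0.780).

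The zonal genes of the liver, which Wnt signalling is known to arrange, split in part. Of 7 pericentral genes 3 were higher and 1 lower in lenvatinib against placebo, with Lect2, a hepatocyte-secreted factor, at 2.84 ± 1.17, the glutamate transporter Slc1a2 at 1.67 ± 0.67 and Gulo at 0.99 ± 0.44. Of 5 periportal genes 0 were higher and 1 lower, Pck1, the enzyme of glucose synthesis, at -1.38 ± 0.64, with Cyp2f2 at -0.77 ± 0.38 and the urea cycle gene Arg1 at 0.70 ± 0.88. Limma gave adjusted p values from 0.693 to 0.881 for these genes. Lect2 ranged in placebo from 3.65 over 6.55 to 9.63 and read 9.24, 10.14, 9.67, 9.30 and 8.12 with lenvatinib. Its low placebo tumours were 1, 4 and 6, those in which the Wnt targets and the hepatocyte lineage score were low. The lower pericentral gene was Cyp2e1, a cytochrome P450 and a textbook pericentral marker, named after its values were seen, at -2.16 ± 1.01 (limma adjusted p = 0.693). It read 9.64, 4.73, 6.89, 9.77, 5.44 and 8.58 in placebo tumours 1 to 6 and 6.04, 4.63, 4.89, 7.12 and 4.07 with lenvatinib. It was thus high in the placebo tumours in which the Wnt targets were low, and these had adipocyte scores of at least 2.00. In anti-PD1 tumour 2, with an adipocyte score of 2.92 and a member score of -1.32, it read 10.29. The periportal gene Pck1 read 7.68, 7.73 and 6.67 in placebo tumours 1, 4 and 6, and 6.94 in anti-PD1 tumour 2. It read 4.32, 4.82 and 4.45 in placebo tumours 2, 3 and 5. The part of adipocyte RNA in the Cyp2e1 and Pck1 signals was not tested.

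**Figure D5:**
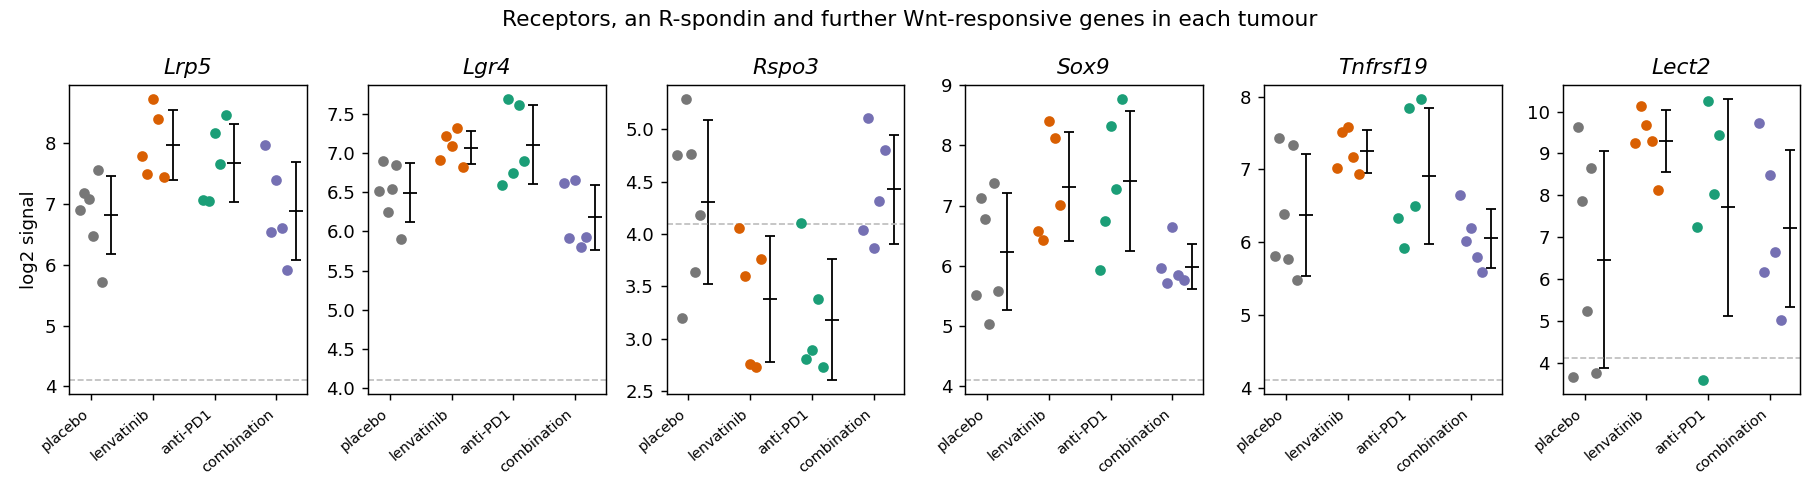
Log2 signal of Lrp5, Lgr4, Rspo3, Sox9, Tnfrsf19 and Lect2, 1 point per tumour in 4 arms, with the mean and SD of each arm as a cross and bar and the negative control median of 4.10 as a dashed line; each panel has its own scale. Sox9 lies between 5.71 and 6.64 in the 5 combination tumours, and Rspo3 lies below 4.10 in all 5 lenvatinib tumours.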

How the data were processed

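The 21 arrays, 1 per mouse in 4 arms, were used as the log2 signals that the authors deposited. According to the submitters' processing notes these come from RMA in the oligo package. RMA is meant to equalise the distribution of signal between arrays, and can therefore take out a change common to most genes. The deposited signals still differed in spread. Their interquartile range was 2.41 to 2.82 on the 6 bright-control arrays and 3.00 to 3.25 on the other 15. The sources used here do not give the genome build or annotation version. After 6923 control rows were left out, 22206 probe sets were fitted with limma (version 3.58.1, statmod 1.5.0, R 4.3.3; lmFit and eBayes on 4 arm means, 17 residual degrees of freedom) for 6 pairs of arms and the interaction, with Benjamini-Hochberg adjustment per contrast and no filter. Gene names came from the platform annotation, and 2634 probe sets are unnamed here. The arrays have no read depth, so their number limits precision. Correlations used 100000 permutations (Python 3.11.15, SciPy 1.17.1).

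The members, gene lists and alternatives were chosen with earlier results of these data known. The pathway lists left unmatched Ctnnb1, Dvl2, Tcf7, Ccnd1, Ephb2, Rhbg, Gls2, Sds and Ass1. Named genes were all members, from each pathway list the 2 genes with the smallest p in lenvatinib against placebo and the 2 with the smallest p over the other pairs of arms, and the 3 genes most like each member; 1 probe set, the one with the highest mean, stood for a gene. Mice were assigned to arms by their treatment labels, and p-values measure the spread between mice. Alternatives were a filter on low signal (40th percentile), array weights, cyclic loess, trend and robust eBayes, hybridization control signal, tissue scores, fits of only the groups compared, an adjusted p under 0.1, exact permutation, the mouse number as a block and leaving out each mouse. The fit was tested on simulated data. Promoter sequences came from RefSeq.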

Additional observations from a re-analysis of the deposited data

Results flagged for a closer look

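Of 28 groups of member values, 1 per gene and arm, 0 held a tumour that stood far outside the others of its arm. Over 84 such groups, which add the tissue scores and 6 pathway genes, 4 did, where chance flags about 1 in 20. Sox9 read 6.64 in combination tumour 3, above the other 4 tumours of that arm. The skeletal muscle score was 3.35 in anti-PD1 tumour 2 and 4.81 in combination tumour 2, far above the rest of each arm. Both tumours were among those with low Wnt targets, while placebo tumour 5 and lenvatinib tumour 4 combined muscle scores of 4.00 and 3.81 with member scores of 0.61 and 1.00. The T cell score was 0.61 in lenvatinib tumour 5, above the rest of that arm. The part of host muscle in the member values was not tested beyond the fit with muscle and adipocyte scores.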

How the results depend on the processing

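Lenvatinib minus placebo stayed above 0 and combination minus lenvatinib below 0 for the 7 members (6 under the filter on low signal, which removed Sp5) under each alternative, with each mouse left out too, except under the tissue covariates named below. With array weights 707, 504 and 1691 probe sets passed in the combination against lenvatinib, the combination against anti-PD1 and the interaction, against 0 in the fit without weights. In the combination against anti-PD1, 31 passed with the hybridization control covariate, 233 without the bright-control arrays and 21 with the adipocyte and muscle scores. Leaving out 1 mouse gave 0 to 338 probe sets there, 0 to 1 against lenvatinib and 0 to 320 in the interaction, the highest each time without combination tumour 1. Without lenvatinib tumour 5, 81 passed in the interaction, and without anti-PD1 tumour 4, 87 passed in the combination against anti-PD1 and 7 in the interaction. The causes of these shifts were not tested.

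The sign turned in 68 cases of a member's difference, 33 of them in the combination against placebo. With the hepatocyte lineage score (added after the data were seen), lenvatinib minus placebo was -0.015 for Notum and -0.15 for Sp5; anti-PD1 minus placebo -0.10 for Znrf3 and -0.10 for Sp5; combination minus placebo -0.042 for Znrf3. Combination minus lenvatinib was then 0.045 for Nkd1, 0.052 for Lgr5 and 0.11 for Notum, and combination minus anti-PD1 0.26 for Nkd1 and 0.057 for Znrf3. Lenvatinib minus anti-PD1 was -0.18 for Lgr5, -0.34 for Tbx3, -0.33 for Notum and -0.051 for Sp5, and the interaction 0.051 for Sp5. With the adipocyte and muscle scores, lenvatinib minus placebo was -0.20 for Sp5, combination minus placebo -0.19 for Nkd1, -0.47 for Axin2, -0.14 for Lgr5, -0.18 for Notum and -0.49 for Znrf3, and lenvatinib minus anti-PD1 -0.092 for Axin2, -0.26 for Lgr5, -0.61 for Tbx3, -0.51 for Notum and -0.25 for Sp5. Without the bright-control arrays, anti-PD1 minus placebo was -0.041 for Sp5, and combination minus placebo -0.63 for Nkd1, -0.81 for Axin2, -0.20 for Lgr5, -0.51 for Notum and -0.92 for Znrf3. With array weights combination minus placebo was -0.076 for Nkd1, -0.43 for Axin2, -0.082 for Lgr5, -0.13 for Notum and -0.52 for Znrf3.

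Deviations from the arm means correlated at -0.63 to 0.56 (median 0.10) over 30 pairs of tumours with the same mouse number in other arms. Over 135 pairs with other numbers they correlated at -0.58 to 0.74 (median -0.04). Whether these medians differ was not tested, and the main fit did not use the number. With the number as a replicate block, which drops placebo tumour 6, the only one with its number, no probe set passed in any contrast, and combination minus placebo was -0.093 for Axin2 and -0.25 for Znrf3.

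Leaving out 1 mouse at a time turned the sign of some small differences. Combination minus placebo ran from -0.30 to 0.44 for Axin2, -0.031 to 0.41 for Lgr5, -0.39 to 0.49 for Znrf3 and -0.069 to 0.40 for Notum. Anti-PD1 minus placebo ran from -0.14 to 0.28 for Sp5, lenvatinib minus anti-PD1 from -0.24 to 0.24 for Tbx3 and -0.032 to 0.60 for Notum, and combination minus anti-PD1 from -0.95 to 0.13 for Nkd1 and -0.81 to 0.067 for Znrf3. Over 308 single correlations recomputed under the alternatives, 25 passed by r that had not passed before, and 3 no longer passed. Without the 2 farthest tumours, r with the muscle score turned to 0.0066 for Lgr5, 0.19 for Tbx3, 0.061 for Notum, 0.088 for Znrf3 and 0.0052 for Sp5. The sign of r of the endothelial score and Tbx3 turned too (0.047), and r of the T cell score and Nkd1 was 0.016 with arm means subtracted.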
